A study of Mus musculus with 46 samples.

Results

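The genes described are 34 members of glycolysis and of the response to low oxygen, out of 48795 genes in the expression table. They were given as a list of names: 2 glucose transporters, 3 hexokinases, 7 enzymes of upper glycolysis, 2 enzymes that make or remove fructose-2,6-bisphosphate, 6 enzymes of lower glycolysis, 5 genes that handle lactate or pyruvate, 5 classical hypoxia targets, 2 oxygen sensors and 2 HIF alpha subunits. All 34 had a row in the table, and all 34 passed the filter on low values in each comparison. Ca9, carbonic anhydrase of the cell surface, stands under the mouse symbol Car9 in the annotation.

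Glycolysis turns glucose into pyruvate, and cells short of oxygen, like many tumor cells and activated immune cells, send much of that pyruvate to lactate. When oxygen falls, the prolyl hydroxylases encoded by Egln1 and Egln3 no longer mark the HIF alpha proteins for breakdown, and HIF then raises the transcription of glucose transporters, glycolytic enzymes, Ca9, Bnip3 and Adm, and of Egln3 itself. HIF is controlled mostly as a protein, so the RNA of Hif1a is not a measure of its activity. Hexokinases carry out the first step of glucose use. Hk1 is broadly expressed, Hk2 is the form that tumors and hypoxia raise, and Hk3 is found mostly in myeloid cells.

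Bulk RNA sequencing was performed on MC-38, a mouse colon carcinoma line, in culture and as tumors in female C57BL/6NTac mice or in PD-1 conditional knockout mice and their littermates. The methods give the mice of both experiments as female and 8 to 10 weeks old. The conditional Pdcd1 allele was made in C57BL/6NTac embryonic stem cells. The antibody experiment held 3 cultures, 3 untreated baseline tumors, for which the labels give no time, and 4 treated groups with 5 tumors in each. The treated groups were isotype control and PD-1 Ab (muDX400, 5 mg/kg) after 1 dose at 4 days, and the same agents after 2 doses at 8 days. The genetic experiment held 10 PD-1cKO and 10 WT tumors labelled 28 days, although the methods of the study give an earlier day of collection for the PD-1cKO tumors used for RNA. The study counts days from tumor implant, and on that count it gives later days than 4 and 8 for the treated antibody tumors. The 4 and 8 days are therefore not on the same clock as the 28 days. PD-1cKO mice carried ROSA26creERT2, a tamoxifen-activated Cre expressed in all tissues, and Pdcd1 fl/fl alleles with exons 2 and 3 between loxP sites, and the WT littermates were given the same tamoxifen (40 mg/kg on 5 consecutive days). The Cre acts in the host and the MC-38 cells carry no floxed allele. Pdcd1 RNA at gene level did not check the deletion, since the other exons remain, and it was higher in the PD-1cKO tumors (median 9.52 scaled FPKM) than in WT tumors (3.10). Defining epithelial markers were almost absent from the cultured line, where 6 of them summed to between 0.478 and 0.579 scaled FPKM.

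Levels are FPKM, fragments per kilobase of transcript and per 1e6 mapped fragments, divided by 1 scaling factor per library, so that they are per length and may be compared between genes. Short noncoding RNA took 30.2% to 66.5% of the FPKM of the 20 libraries of 28 days and at most 0.0746% elsewhere. With FPKM as deposited, before the scaling, the median gene of all those tested stood at -0.20 (log2) for PD-1cKO against WT and at 0.26 for PD-1 Ab against isotype control at 4 days, and after scaling these medians were 0.05 and 0.01. The median gene of isotype control tumors of 8 days against culture stood at -0.01 after scaling and at -0.11 both as deposited and with upper-quartile scaling. Isotype control replicate 1 of 4 days stood apart, with 54.6% of its FPKM from mitochondrial genes. PD-1cKO replicates 4 and 8 also stood apart: their mean correlations with the rest of their group were 0.881 and 0.855, and their summed proliferation markers were 71.6 and 66.0 scaled FPKM against 256 to 408 in the other 8. In bulk tissue, fewer cells of a type and less RNA per cell cannot be told apart. The depth of each library is unknown from FPKM, so precision is given as the spread between tumors or cultures.

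The members spanned a wide range of levels. In isotype control tumors of 8 days the highest were Gapdh (1163 ± 311 scaled FPKM, SD, n = 5), Ldha (1104 ± 269) and Pkm (1100.0 ± 169), the last being the pyruvate kinase that ends glycolysis. The lowest were Eno2 (1.87 ± 0.425), the neuronal form of enolase, Adm (1.98 ± 0.491), a secreted vasodilator, and Epas1 (2.79 ± 0.259), which encodes HIF-2 alpha. Of the glucose transporters, Slc2a1 stood at 213 ± 38.2 and Slc2a3 at 4.41 ± 1.65. Some of these levels are uncertain because the genes have near copies. Of the 50-base stretches in the transcripts of Pgk1, 53.9% also occur in another annotated gene, with Pgk1-rs7 sharing the most, and the share was 36.2% for Pgam1, 26.0% for Eno1, 25.8% for Pkm, 24.7% for Gapdh, 21.0% for Ldhb and 16.6% for Bnip3. It was 0 for Slc2a1, Hk1, Hk2, Hk3, Ca9, Ankrd37, Egln1, Egln3 and Epas1.

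The hypoxia targets and oxygen sensors were higher in isotype control tumors of 8 days than in culture. Most of the abundant glycolytic enzymes did not pass the test. Against the 3 cultures, 21 of the 34 members were higher in the 5 isotype control tumors of 8 days and none was lower (limma, adjusted p under 0.01). Among all genes tested, 22.5% were higher and 13.6% lower. The median log2 fold change of the members was 0.66, beside -0.01 over all genes tested, and 14 members were called at 2-fold or more higher and 0 lower, as were 14.7% and 5.95% of all genes. All 5 hypoxia targets, both oxygen sensors, both glucose transporters, all 3 hexokinases and both fructose-2,6-bisphosphate enzymes were higher. Among the enzymes of upper glycolysis Gpi1 (0.93 ± 0.21, SE), Pfkl (0.69 ± 0.12), Pfkp (1.31 ± 0.12) and Aldoc (1.94 ± 0.15) were higher. Pfkm, Aldoa and Tpi1 did not pass. Of the 6 enzymes of lower glycolysis only Pgam1, phosphoglycerate mutase, was called (0.42 ± 0.10, SE). Of the 5 genes of lactate and pyruvate only Slc16a3 was called (0.34 ± 0.08), and Pdk1 was at 0.15 ± 0.11 (adjusted p = 0.29). With FPKM as deposited 18 members were higher and 1 was lower. Tumors of 28 days, from the other experiment, were not tested against culture. Their mean Egln3 was 33.9 scaled FPKM in WT and 30.8 in PD-1cKO, beside 32.4 in culture. Mean Bnip3 was 137 in WT and 88.4 in PD-1cKO, beside 87.7 in culture. The other hypoxia targets and Egln1 had means above culture in both groups.

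**Figure D1:**
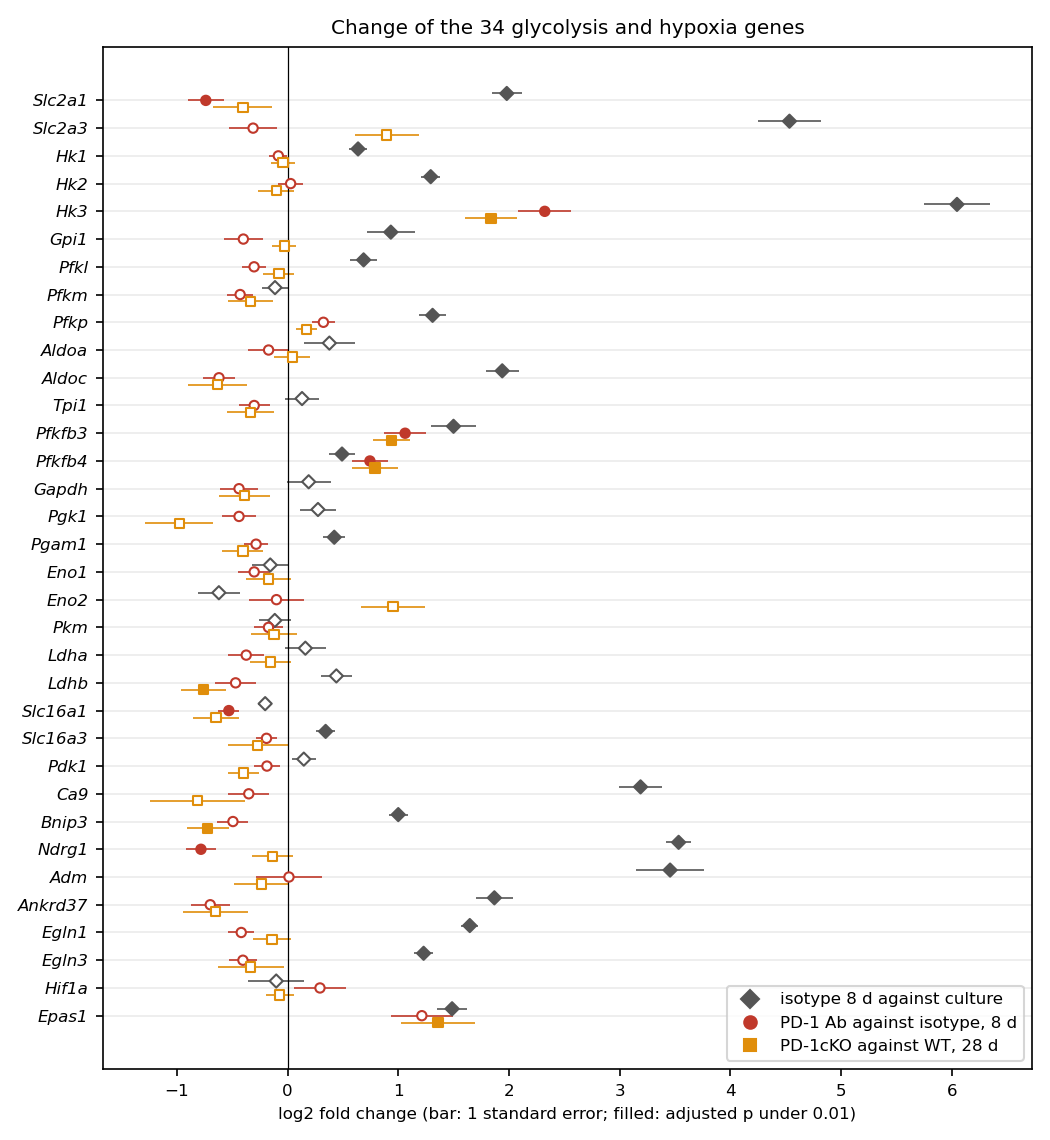
Log2 fold change (horizontal axis, bars 1 standard error) of each of the 34 members (rows) in 3 comparisons: isotype control tumors of 8 days against cultures (diamonds), PD-1 Ab against isotype control at 8 days (circles) and PD-1cKO against WT at 28 days (squares). Filled symbols passed an adjusted p of 0.01. Against culture 21 members are filled and all of them lie to the right of 0, whereas Hk3, Pfkfb3 and Pfkfb4 are the members filled to the right of 0 in all 3 comparisons.

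Slc2a1, the main glucose transporter of tumor cells (chr4:119108711-119137983, plus strand), was measured at 54.6, 54.1 and 51.6 scaled FPKM in the cultures. In the isotype control tumors of 8 days its levels were 192, 184, 276, 192 and 223. No tumor came near the cultures, and the log2 fold change was 1.98 ± 0.13 (SE, adjusted p = 2.38e-06). Ndrg1 (chr15:66929318-66969640, minus strand), a stress gene that HIF raises, stood at 13.8, 15.4 and 13.0 in culture and at 146, 144, 191, 160 and 183 in tumors. The tumors were about an order of magnitude higher, and the log2 fold change was 3.53 ± 0.12 (adjusted p = 1.87e-08). Ca9 (chr4:43506966-43513729, plus strand), which keeps the pH of hypoxic cells, stood at 9.55, 11.1 and 9.24 in culture and at 72.5, 71.7, 133, 89.9 and 102 in tumors. Replicate 3 was the highest tumor and every tumor was far above the cultures, with a log2 fold change of 3.19 ± 0.20 (adjusted p = 1.30e-06).

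3 members were close to 0 in culture, so the size of their change depends on the constant added before the logarithm. Hk3 was measured at 0.0439, 0.0126 and 0 scaled FPKM in the cultures and at 4.84, 6.09, 8.63, 12.7 and 8.10 in isotype control tumors. Its fitted log2 fold change was 6.05 ± 0.30 and lay between 3.10 and 6.26 over the alternatives. Macrophage markers moved with it: 11 of 11 were higher in these tumors, their summed level was 974 to 1359 scaled FPKM against 5.49 to 6.10 in culture, and 5 of the 11, among them Adgre1 and Itgam, were at 0 in all cultures. Slc2a3, a transporter of neurons and blood cells, stood at 0.0660, 0.125 and 0.0708 in culture and at 4.20, 7.13, 3.75, 2.68 and 4.29 in tumors. Adm stood at 0.155, 0.105 and 0.0211 in culture and at 1.76, 2.32, 2.13, 1.24 and 2.46 in tumors. For each of the 3 genes the tumors were all above the cultures.

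Most of the abundant enzymes gave the contrast, unlike Gpi1 and Pgam1, which were called higher. Pgk1, phosphoglycerate kinase (chrX:106187100-106203699, plus strand), stood at 689, 692 and 716 in culture and at 758, 739, 1141, 752 and 899.8 in isotype control tumors of 8 days. The groups did not overlap, but the lowest tumor was only just above the highest culture, and the log2 fold change was 0.28 ± 0.16 (adjusted p = 0.17). Ldha, the lactate dehydrogenase subunit of glycolytic tissue, stood at 970.3, 960.0 and 969.9 in culture and at 995, 863, 1551, 967 and 1145 in tumors, and the groups overlapped (0.16 ± 0.19, adjusted p = 0.49). The 11 other members that did not pass had log2 fold changes between -0.62 (Eno2) and 0.44 (Ldhb), the heart-type lactate dehydrogenase subunit. Hif1a was among them, at 40.0, 40.1 and 41.5 in culture and 41.8, 53.2, 22.2, 48.7 and 32.1 in tumors. Groups of 25 members did not overlap, against 58.0% of all genes tested.

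**Figure D2:**
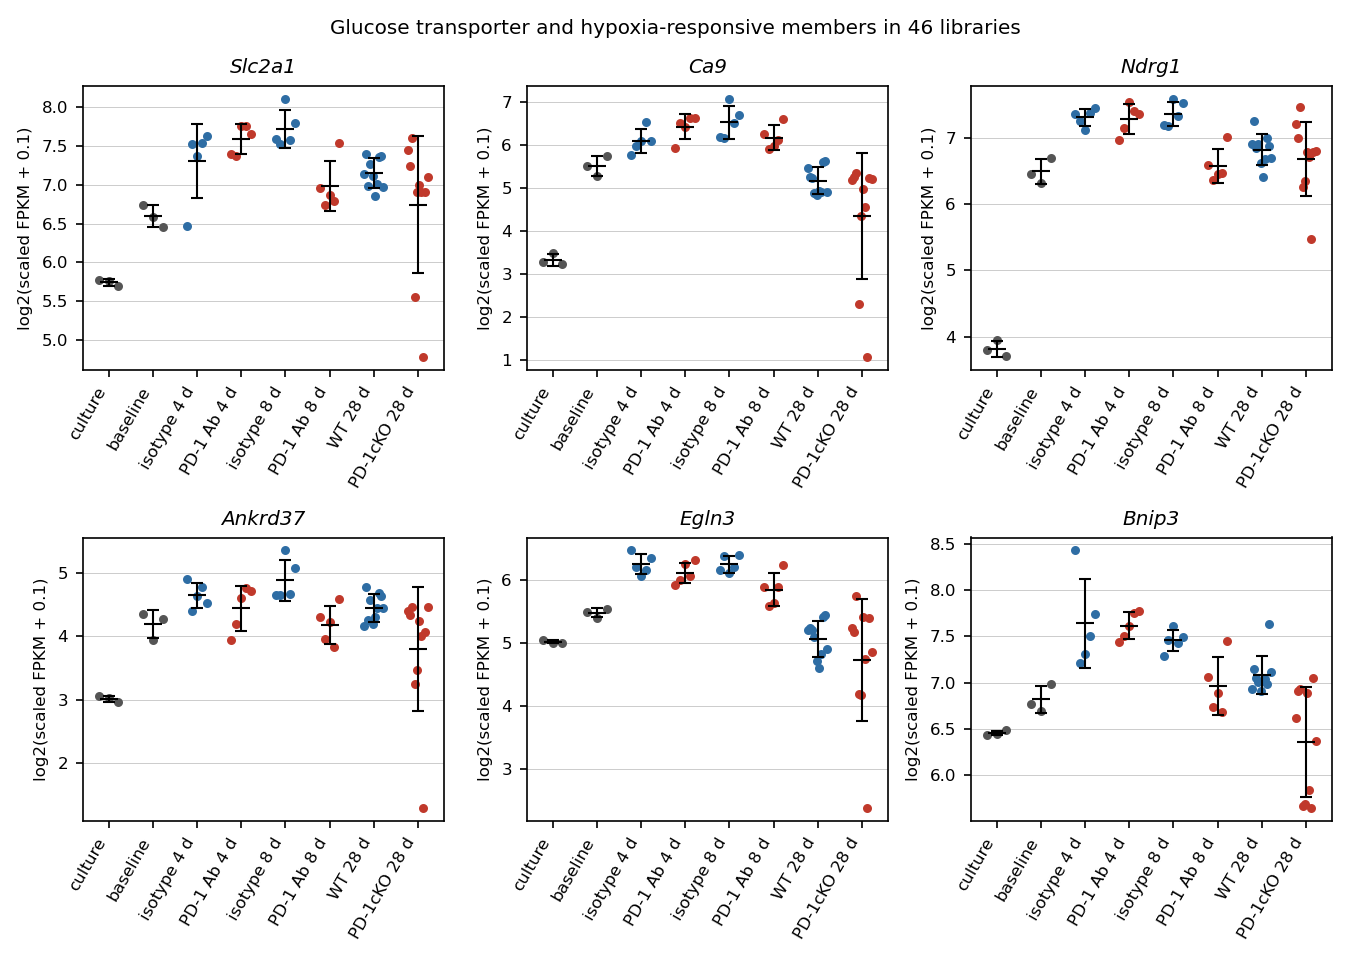
Levels of Slc2a1 and 5 hypoxia-responsive members in the 46 libraries, as log2(scaled FPKM + 0.1) on the vertical axis, by group. Points are libraries, with grey for cultures and baseline tumors, blue for control tumors and red for PD-1 Ab or PD-1cKO tumors, and lines give the mean and SD of the group. PD-1cKO replicates 4 and 8 lie below the cultures for Slc2a1 (46.8 and 27.4 scaled FPKM) and Ca9 (4.81 and 2.02), and both lie above the cultures for Ndrg1 (76.1 and 44.4). Replicate 8 also lies below the cultures for Ankrd37 (2.34), Egln3 (5.10) and Bnip3 (50.0). The next lowest PD-1cKO tumors, at 18.0 for Egln3 and 50.6 for Bnip3, are below the culture means of 32.4 and 87.7 as well.

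The starts of these genes were read for the core of the hypoxia response element, ACGTG on either strand, in the 250 bases before each transcription start given by RefSeq (GRCm38.p6). Windows were found for 31 of the 34 members, and 18 of them (58.1%) held the letters in at least 1 window, as did 18.5% of all 27025 genes with a window. The same letters lie within the E-box CACGTG, which other factors bind, so a match is a description of the sequence and no site of binding. Bnip3, Ldha, Hif1a, Pfkfb3, Pfkm and Slc16a1 had such an E-box. The promoters of 5 members are shown, Hk2 and Hk3 because the levels of these hexokinases are compared in what follows, and Egln3, Bnip3 and Pgk1 as an oxygen sensor, a hypoxia target and an enzyme with the letters. Each reads 5′ to 3′ on the strand of the gene up to the base before its start, with the matches in capitals.
Hk2 (chr6:82774455-82774704, minus strand): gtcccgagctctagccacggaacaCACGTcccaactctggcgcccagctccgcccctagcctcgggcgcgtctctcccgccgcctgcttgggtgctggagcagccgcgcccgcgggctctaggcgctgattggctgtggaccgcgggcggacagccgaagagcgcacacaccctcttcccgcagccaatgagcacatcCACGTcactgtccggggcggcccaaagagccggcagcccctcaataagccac
Hk3 (chr13:55021386-55021635, minus strand): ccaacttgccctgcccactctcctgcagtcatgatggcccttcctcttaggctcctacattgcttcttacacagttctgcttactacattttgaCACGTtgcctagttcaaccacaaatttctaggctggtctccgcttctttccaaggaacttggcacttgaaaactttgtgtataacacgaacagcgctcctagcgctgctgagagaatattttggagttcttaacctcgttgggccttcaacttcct
Egln3 (chr12:54203875-54204124, minus strand): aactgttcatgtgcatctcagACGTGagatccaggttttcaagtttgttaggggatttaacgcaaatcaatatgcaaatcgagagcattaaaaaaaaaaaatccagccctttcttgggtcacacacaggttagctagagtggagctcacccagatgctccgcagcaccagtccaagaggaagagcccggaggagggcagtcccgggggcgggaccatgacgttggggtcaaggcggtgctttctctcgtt
Bnip3 (chr7:138909520-138909756, minus strand): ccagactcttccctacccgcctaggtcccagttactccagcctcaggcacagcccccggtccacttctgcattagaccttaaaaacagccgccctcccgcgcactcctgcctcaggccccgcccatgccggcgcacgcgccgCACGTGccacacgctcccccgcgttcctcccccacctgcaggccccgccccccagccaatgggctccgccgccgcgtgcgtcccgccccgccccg
Pgk1 (chrX:106186850-106187099, plus strand): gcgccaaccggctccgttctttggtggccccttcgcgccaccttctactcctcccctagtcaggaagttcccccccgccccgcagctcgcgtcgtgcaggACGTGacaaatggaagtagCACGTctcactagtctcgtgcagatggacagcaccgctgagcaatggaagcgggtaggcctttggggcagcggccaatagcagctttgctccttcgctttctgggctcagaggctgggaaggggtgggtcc
In Hk2 the matches began 226 and 52 bases before the start, and in Hk3 the match began 156 bases before it. In Egln3 the match began 229 bases before the start. In Bnip3 the E-box began 108 bases before the start, and in Pgk1 the matches began 150 and 131 bases before it. The 13 bases of the Bnip3 window next to the start lie inside the gene in GENCODE and are not printed. Of the 5 members shown, Pgk1 did not pass the test against culture and the other 4 were called higher in tumors. Egln3, Bnip3 and Pgk1 were picked for holding the letters, so no relation between letters and calls can be read from these members. Hk1, Pfkp and Adm, without the letters in any window, were also called higher, and Ldha and Hif1a, with them, were not. Such a relation was not tested.

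Untreated baseline tumors were also higher than culture for most members. Against culture, 18 members were higher and 2 lower (limma, adjusted p under 0.01), beside 23.6% and 15.2% of all genes tested. At 2-fold or more 11 were higher and 1 lower, beside 12.7% and 3.14%, and the groups did not overlap for 29 members and for 64.5% of all genes. This comparison uses the same cultures as the one with isotype control tumors. Ndrg1 stood at 87.8, 79.9 and 104 in the baseline tumors, Ca9 at 45.1, 38.7 and 53.1, and Slc2a1 at 107, 96.1 and 87.6, all above every culture. Their log2 fold changes were 2.67 ± 0.10, 2.17 ± 0.12 and 0.85 ± 0.07. The members called lower were Eno2 (-1.11 ± 0.18) and Pfkm, the muscle form of phosphofructokinase (-0.29 ± 0.06). With upper-quartile scaling 15 members were higher and 5 lower, and all genes split as 2943 higher and 3136 lower instead of 3458 and 2237.

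Isotype control tumors of 8 days held more Slc2a1, Slc2a3 and Egln3 than baseline tumors. These were the members called, at log2 fold changes of 1.13 ± 0.15, 2.12 ± 0.27 and 0.77 ± 0.10 (adjusted p = 0.0060, 0.0052 and 0.0055), and none was lower, beside 0.200% higher and 0.413% lower among all genes tested. Slc2a1 and Slc2a3 were the 2 called at 2-fold or more, beside 0.179% higher and 0.386% lower. Egln3, which HIF itself induces, stood at 45.1, 42.1 and 46.4 in baseline tumors and at 71.0, 83.3, 69.0, 73.7 and 84.2 in isotype control tumors. Every isotype control tumor was above every baseline tumor. The groups did not overlap for 16 of the 34 members, beside 14.8% of all genes tested, and 32 members had a positive log2 fold change, with a median of 0.30 against -0.03 for all genes. Ca9 was at 1.01 ± 0.21 (adjusted p = 0.033) and Ndrg1 at 0.86 ± 0.13 (adjusted p = 0.012). With 3 baseline tumors the calls rested on single libraries. 5 members were called without isotype control replicate 3, 2 without replicate 2 and 1 without replicate 4. None was called without replicates 1 or 5 or without any 1 of the baseline tumors. Shares of all genes called in these fits are not given. Sample identifiers of the cultures, the baseline tumors and the isotype control tumors of 8 days lay in separate ranges. What these ranges stand for is not given, so range and group cannot be told apart in the comparisons among them.

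Hk3, the myeloid hexokinase (chr13:55005985-55021385, minus strand), had the largest log2 fold change of the members with PD-1 Ab at 4 and 8 days and in PD-1cKO, although at 4 days it did not pass the test. Per length it stood below both other hexokinases in every control tumor and above either of them in some PD-1 Ab tumors of 8 days and some PD-1cKO tumors. In isotype control tumors of 8 days Hk3 was 0.116 to 0.276 of Hk1 and 0.160 to 0.394 of Hk2. In PD-1 Ab tumors of 8 days the ratio of Hk3 to Hk1 ranged from 0.585 to 1.32, with 3 of 5 tumors above 1, and the ratio to Hk2 from 0.676 to 1.60, with 4 of 5 above 1. In PD-1 Ab tumors of 4 days the ratio to Hk1 ranged from 0.338 to 0.617 and the ratio to Hk2 from 0.495 to 0.889, with 0 of 5 tumors above 1. In PD-1cKO tumors the ratio to Hk1 ranged from 0.570 to 3.40, with 6 of 10 above 1, and in WT tumors from 0.230 to 0.677, with none above 1.

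Neither Hk1 nor Hk2 passed the test with PD-1 Ab at 4 or 8 days or in PD-1cKO. Hk1 (chr10:62268855-62379908, minus strand) stood at 43.3 ± 2.57 scaled FPKM in isotype control and 40.9 ± 2.91 in PD-1 Ab tumors of 8 days (SD, n = 5). Hk2 (chr6:82725025-82774454, minus strand) stood at 30.8 ± 2.56 and 31.7 ± 5.08. On the log2 scale the Hk3 to Hk1 ratio was higher with PD-1 Ab by 2.41 ± 0.28 (SE) at 8 days and by 1.30 ± 0.31 at 4 days, and each of 5 PD-1 Ab tumors was above each of 5 controls at both times (exact permutation test, 2-sided, p = 0.0079 at each time, the smallest this design allows, adjusted over 12 tests to 0.016). The Hk3 to Hk2 ratio was higher by 2.30 ± 0.33 and 1.28 ± 0.32, with the same p. Between PD-1cKO and WT the differences were 1.88 ± 0.31 for Hk1 and 1.94 ± 0.37 for Hk2, with 9 of 10 PD-1cKO tumors above every WT tumor (permutation test with 100000 resamples, 2-sided, p = 4e-05 for each, adjusted p = 0.00024). Without PD-1cKO replicates 4 and 8 they were 1.55 and 1.49.

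**Figure D3:**
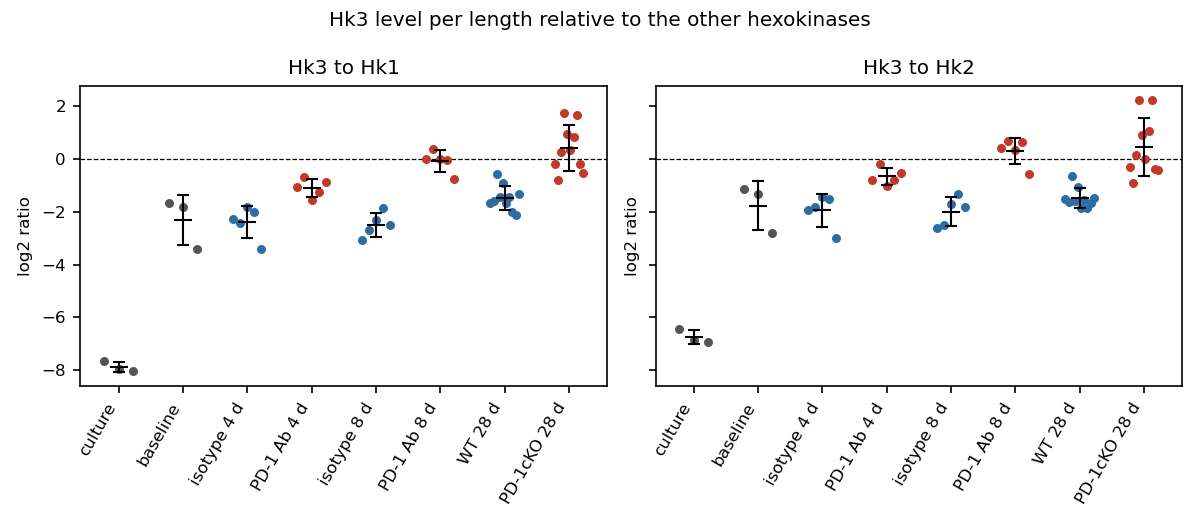
Log2 ratio of Hk3 to Hk1 (left) and of Hk3 to Hk2 (right) in each library, by group, from scaled FPKM + 0.1. Points are libraries, coloured grey for cultures and baseline tumors, blue for controls and red for PD-1 Ab or PD-1cKO, lines give mean and SD, and the dashed line marks equal levels. Points above that line occur only in the PD-1 Ab tumors of 8 days and the PD-1cKO tumors.

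Cultures held almost no Hk3, at 0 to 0.0015 of Hk1, so the tumors were set against them with that limit. The log2 ratio of Hk3 to Hk1 was higher by 5.41 in isotype control tumors of 8 days (exact permutation test, 5 against 3, p = 0.036, the smallest this design allows) and by 5.59 in baseline tumors, where 3 against 3 cannot go below 0.10. Isotype control tumors of 8 days did not differ from baseline tumors beyond their spread (-0.18 ± 0.59, exact permutation test, p = 0.75). Hk2 itself rose from 12.4, 13.0 and 12.04 in culture to 30.2, 34.5, 28.6, 32.3 and 28.5 in isotype control tumors (1.29 ± 0.09, limma, adjusted p = 2.12e-06), and Hk1 from 29.2, 28.0 and 26.2 to 41.6, 40.1, 43.0, 46.1 and 45.7 (0.64 ± 0.08, adjusted p = 0.00013).

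**Figure D4:**
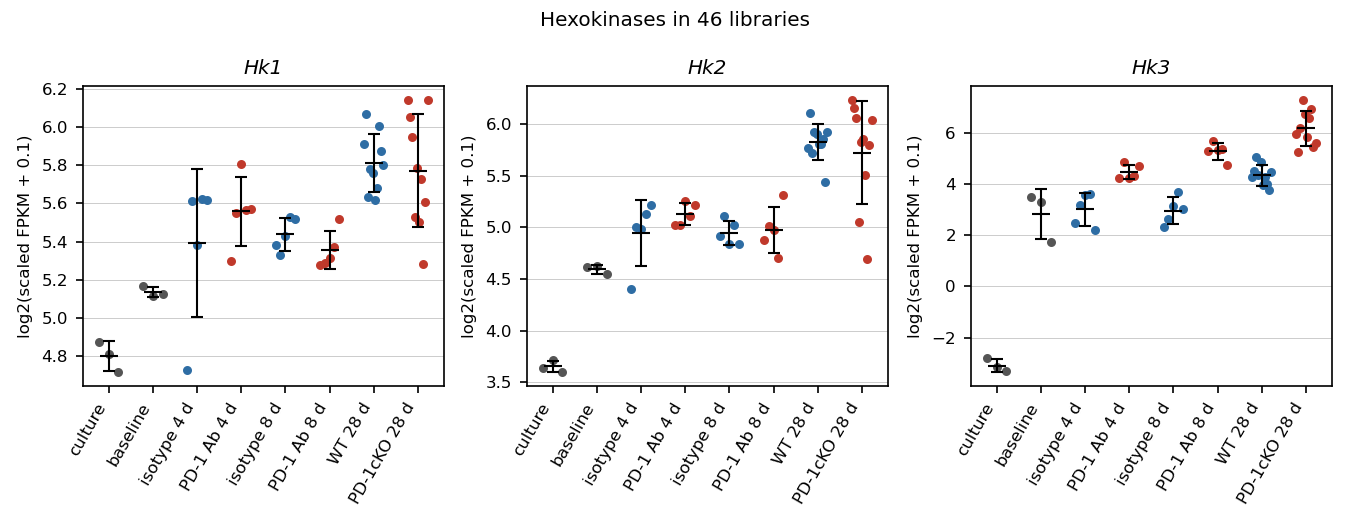
Levels of the 3 hexokinases in the 46 libraries, as log2(scaled FPKM + 0.1), by group. Points are libraries, coloured as above by culture and baseline (grey), control (blue) and PD-1 Ab or PD-1cKO (red), and lines give mean and SD. Across tumors Hk1 ranges from 26.4 to 70.5 scaled FPKM and Hk2 from 21.04 to 75.3, while Hk3 is near the floor in culture and highest in the PD-1 Ab tumors of 8 days and the PD-1cKO tumors.

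With PD-1 Ab at 8 days 3 members were higher and 3 lower. Hk3, Pfkfb3 and Pfkfb4 were higher than with isotype control, and Slc2a1, Slc16a1 and Ndrg1 were lower (limma, adjusted p under 0.01). Of all genes tested, 7.16% were higher and 1.05% lower. Hk3 and Pfkfb3 were called at 2-fold or more higher and no member 2-fold lower, beside 5.32% and 0.218% of all genes. The median log2 fold change of the 34 members was -0.30, beside 0.00 over all genes tested, and 26 of them had a negative value. The groups did not overlap for 7 members, the 5 called other than Slc2a1 with Aldoc and Ankrd37, and for 14.6% of all genes tested.

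Hk3 and both fructose-2,6-bisphosphate enzymes were the members higher with PD-1 Ab. Hk3 stood at 4.84, 6.09, 8.63, 12.7 and 8.10 scaled FPKM with isotype control and at 38.7, 51.4, 40.2, 40.7 and 26.8 with PD-1 Ab. Replicate 5 was the lowest of the treated tumors and was still above every control, and the log2 fold change was 2.32 ± 0.24 (SE, adjusted p = 0.0010). Pfkfb3 (chr2:11471433-11554077, minus strand), which makes the activator of phosphofructokinase, stood at 14.2, 18.1, 9.27, 17.1 and 12.7 against 28.4, 34.1, 32.0, 32.1 and 21.0 (1.06 ± 0.19, adjusted p = 0.0033). Pfkfb4, its relative, stood at 4.61, 4.09, 5.12, 4.69 and 5.30 against 7.04, 10.4, 9.90, 7.95 and 5.72 (0.74 ± 0.16, adjusted p = 0.0094). Replicate 5 was again the lowest treated tumor for both genes, and the groups did not overlap.

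Macrophage markers moved with these genes: 9 of 11 were higher with PD-1 Ab, with a median log2 fold change of 1.33, and their sum was 3078, 4359, 3959, 3746 and 1642 scaled FPKM in the treated tumors against 974 to 1359 with isotype control. Replicate 5 had the lowest sum as well as the lowest Hk3, Pfkfb3 and Pfkfb4. All 7 T cell markers were higher, with a median of 2.50 and sums of 35.7 to 148 against 9.65 to 19.3. Of the other lists, 1 of 4 neutrophil markers tested was higher (Csf3r, 2.02), 1 of 3 NK markers (Klre1, 2.19), 1 of 5 endothelial markers (Pecam1, 1.54), 2 of 6 adipocyte markers (Thrsp, 4.58, and Plin1, 3.02) and 2 of 8 skeletal muscle markers (Acta1, 3.85, and Myl1, 3.07). Sums ranged from 7.21 to 27.3 against 5.35 to 13.7 for neutrophil, 1.92 to 6.53 against 0.690 to 1.31 for NK, 20.02 to 71.8 against 15.4 to 19.4 for endothelial, 6.52 to 178 against 1.46 to 17.5 for adipocyte and 2.27 to 78.3 against 0.938 to 1.51 for muscle markers. No fibroblast, keratinocyte, erythroid, epithelial or proliferation marker was called. The part of any of these cells in the change of Hk3, Pfkfb3 and Pfkfb4 was not tested.

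The members lower with PD-1 Ab were 1 of 2 glucose transporters, 1 of 5 hypoxia targets and 1 of 5 genes of lactate and pyruvate. Slc2a1 stood at 192, 184, 276, 192 and 223 with isotype control and at 125, 107, 117, 111 and 186 with PD-1 Ab. Replicate 5 lay within the range of the controls and the other 4 treated tumors below it, and the log2 fold change was -0.74 ± 0.16 (adjusted p = 0.0097). Ndrg1 stood at 146, 144, 191, 160 and 183 against 95.6, 82.1, 87.3, 88.1 and 129, with no overlap (-0.78 ± 0.14, adjusted p = 0.0029). Slc16a1 (chr3:104638668-104658462, plus strand), the monocarboxylate transporter MCT1, stood at 23.2, 23.2, 23.7, 24.6 and 22.9 against 16.8, 13.8, 15.1, 17.1 and 18.9, also with no overlap (-0.53 ± 0.095, adjusted p = 0.0034).

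Other hypoxia-responsive members had negative values that did not pass. Ankrd37 was at -0.70 ± 0.18 (adjusted p = 0.017), Bnip3, a mitophagy receptor, at -0.49 ± 0.14 (adjusted p = 0.028), Egln1 at -0.42 ± 0.12 (adjusted p = 0.026), Egln3 at -0.40 ± 0.12 (adjusted p = 0.039) and Ca9 at -0.35 ± 0.19 (adjusted p = 0.19). Epas1 was at 1.21 ± 0.28 (adjusted p = 0.012) and Hif1a at 0.29 ± 0.24 (adjusted p = 0.38). Pgk1 was at -0.44 ± 0.15 (adjusted p = 0.057) and Ldha at -0.37 ± 0.16 (adjusted p = 0.11), and 0 of 7 upper and 0 of 6 lower glycolytic enzymes were called. The count depended on single tumors. For the fits that left out 1 tumor the share of all genes called is not given, so their counts do not single out the members. Without PD-1 Ab replicate 5, 13 members were called, 4 higher and 9 lower. Slc2a1 and Pfkfb4 were called in that fit alone among the 10 that left out 1 tumor, and only Hk3 was called without PD-1 Ab replicate 3 or without isotype control replicate 5. Without PD-1 Ab replicate 1 or 2 the count was 2, and without replicate 4 or isotype control replicate 1, 2, 3 or 4 it was 4. Proliferation markers summed to 307 to 378 with PD-1 Ab and 404 to 440.0 with isotype control.

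At 4 days no member passed the test (limma, 34 tested, 4 with an unadjusted p under 0.05), and 0.0208% of all genes were called higher and 0 lower. The smallest adjusted p values were those of Hk3 (1.46 ± 0.28, adjusted p = 0.078), Pfkfb3 (0.43 ± 0.10, adjusted p = 0.14) and Pfkp, the platelet form of phosphofructokinase (0.34 ± 0.11, adjusted p = 0.32). Hk3 stood at 5.39, 9.06, 11.7, 12.1 and 4.53 with isotype control and at 18.7, 28.9, 18.9, 19.9 and 25.8 with PD-1 Ab. Pfkfb3 stood at 15.0, 19.3, 17.1, 18.4 and 19.8 against 24.9, 25.0, 20.8, 24.5 and 25.4. For both the lowest treated tumor was above the highest control, which held for 2 members and for 3.67% of all genes tested. Slc2a1 was at 0.28 ± 0.21 (adjusted p = 0.69) and Ca9 at 0.34 ± 0.16 (adjusted p = 0.55). Sample identifiers of isotype control replicates 1, 2 and 3 lay apart from those of replicates 4 and 5 and of all PD-1 Ab tumors of 4 days. What this stands for is not given, and identifier range and treatment cannot be fully told apart here.

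In the genetic model 4 members were higher and 2 lower in PD-1cKO than in WT tumors. Hk3, Epas1, Pfkfb3 and Pfkfb4 were higher, and Ldhb and Bnip3 were lower (limma, adjusted p under 0.01). Of all genes tested, 14.2% were higher and 7.39% lower. Hk3 and Epas1 were called at 2-fold or more higher and no member 2-fold lower, beside 7.26% and 1.41% of all genes. Their median log2 fold change was -0.16, beside 0.05 over all genes. The scaling set the split over all genes, with 2210 higher and 1147 lower after scaling and 1323 higher and 1894 lower with FPKM as deposited, where 3 members were higher and 3 lower.

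Hk3 ranged from 37.7 to 157 scaled FPKM over the 10 PD-1cKO tumors, with a median of 67.6, and from 13.4 to 33.6 over the 10 WT tumors, with a median of 19.6. The groups did not overlap, and the log2 fold change was 1.84 ± 0.23 (adjusted p = 0.00047). Pfkfb3 ranged from 18.8 to 57.7 (median 26.8) against 11.0 to 18.8 (median 14.4), and the lowest PD-1cKO tumor was barely above the highest WT tumor (0.94 ± 0.17, adjusted p = 0.00078). Hk3 and Pfkfb3 were the members whose groups did not overlap, as did 1.19% of all genes tested. Pfkfb4 ranged from 7.12 to 27.9 (median 12.5) against 5.61 to 8.72 (median 7.59), with 8 of 10 PD-1cKO tumors above every WT tumor (0.79 ± 0.21, adjusted p = 0.0063).

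Epas1 (chr17:86753700-86833410, plus strand), the HIF alpha subunit of endothelium and macrophages, ranged from 2.94 to 31.3 (median 8.75) in PD-1cKO and from 1.67 to 5.78 (median 4.05) in WT tumors (1.36 ± 0.33, adjusted p = 0.0039). Replicates 4 and 8 were the highest, and 8 of 10 PD-1cKO tumors were above every WT tumor. Macrophage markers moved with these 4 genes, 8 of 11 being higher with a median of 1.21 and a summed level of 1999 to 9408 scaled FPKM against 1149 to 2097. Fibroblast markers also did, 4 of 6 being higher, and replicates 4 and 8 had the highest sums of both lists. All 7 T cell markers were higher, with sums of 36.8 to 190.4 against 14.3 to 45.4. Of 7 neutrophil markers tested 4 were higher, among them Ngp (3.24), Camp (3.11) and S100a8 (2.72), with sums of 9.56 to 536 against 4.68 to 16.1 and the highest in replicates 7, 4 and 8. Of 5 endothelial markers Cdh5 was higher (0.91), with sums of 27.0 to 81.6 against 20.9 to 44.6, and of 6 proliferation markers Mki67 was lower (-1.29), with sums of 66.0 to 408 against 444 to 572. No NK, adipocyte, muscle, keratinocyte, erythroid or epithelial marker was called. The part of any of these cell types was not tested.

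Bnip3 ranged from 50.0 to 132 (median 90.3) in PD-1cKO and from 120.3 to 198 (median 131) in WT tumors (-0.72 ± 0.19, adjusted p = 0.0059). Ldhb (chr6:142490249-142507957, minus strand) ranged from 8.93 to 26.5 (median 23.0) against 21.0 to 54.9 (median 32.6), and the groups overlapped (-0.76 ± 0.21, adjusted p = 0.0072). Pgk1, at -0.98 ± 0.31, had the most negative log2 fold change of the members and did not pass (adjusted p = 0.016). It ranged from 97.3 to 817 against 660.5 to 1262, with replicates 4 and 8 at 159 and 97.3. Slc2a1 was at -0.40 ± 0.27 (adjusted p = 0.23), Ca9 at -0.82 ± 0.43 (adjusted p = 0.13), Ldha at -0.16 ± 0.19 (adjusted p = 0.52), Hk1 at -0.04 ± 0.11, Hk2 at -0.10 ± 0.16 and Hif1a at -0.07 ± 0.12.

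The count of 6 depended on single tumors: it was 3 without PD-1cKO replicate 4, 5 or 8 or WT replicate 9 or 10, and 8 without PD-1cKO replicate 2. Ldhb lost its call in 12 and Pfkfb4 in 10 of the 20 fits that left out 1 tumor. Shares of all genes called in these 20 fits are not given. Without PD-1cKO replicates 4 and 8 together, Hk3 (1.60, adjusted p = 0.00053) and Pfkfb3 (0.75, adjusted p = 0.00077) passed and the other 4 did not. Epas1 was then at 1.00 (adjusted p = 0.010), Pfkfb4 at 0.54, Bnip3 at -0.55, Ldhb at -0.51 and Slc2a1 at -0.01. The sample identifiers of the 28-day tumors fell into 3 runs of consecutive numbers that followed the groups, with 7 PD-1cKO and 0 WT tumors in the first, 1 and 9 in the second and 2 and 1 in the third. What these runs stand for is not given. With the run in the model no gene was called, and Hk3 was at 1.96 ± 0.41 (adjusted p = 0.019), Pfkfb3 at 1.53 ± 0.25, Epas1 at 1.61 ± 0.57, Pfkfb4 at 1.11 ± 0.37, Bnip3 at -0.998 ± 0.34 and Ldhb at -1.11 ± 0.36. Some members that were not called had values further from 0 in that model than without the run, among them Ca9 (-2.22 ± 0.70), Pgk1 (-1.97 ± 0.50), Ankrd37 (-1.89 ± 0.42) and Slc2a1 (-1.36 ± 0.43), with adjusted p = 0.030, 0.021, 0.019 and 0.030. Within the second run Hk3 was 123 in the PD-1cKO tumor and 13.4 to 33.6 in the 9 WT tumors, and within the third it was 43.1 and 49.1 against 21.9. Run and genotype cannot be told apart beyond those tumors.

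Hk3, Pfkfb3 and Pfkfb4 were called as higher in both models, which is 3 of the 3 members higher with PD-1 Ab at 8 days and 3 of the 4 higher in PD-1cKO. Among 13762 genes tested in both models 696 were higher in both, which is 67.5% of those higher with PD-1 Ab and 33.6% of those higher in PD-1cKO. No member was lower in both, Slc2a1, Slc16a1 and Ndrg1 with PD-1 Ab and Ldhb and Bnip3 in PD-1cKO. The difference between the models was tested directly and no member passed (limma, 34 tested, 3 with an unadjusted p under 0.05, 0.0243% of all genes called with a positive difference and 0 with a negative one). The PD-1 Ab effect minus the PD-1cKO effect was 0.48 ± 0.39 for Hk3, with a 95% interval from -0.28 to 1.24, and 0.12 ± 0.28 for Pfkfb3. For Ndrg1 the difference was -0.65 ± 0.28 (adjusted p = 0.31), for Slc2a1 -0.34 ± 0.41 (adjusted p = 0.73), and for Slc2a3, which was at -0.31 with PD-1 Ab and 0.90 in PD-1cKO, -1.21 ± 0.45 (adjusted p = 0.24).

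Across the 10 PD-1cKO tumors Hk3 was higher where the macrophage markers were higher. The correlations of the 3 hexokinases were not tested against each other. No other marker list was examined against Hk3, and markers and hexokinases share the composition of the same libraries. Against the mean log2 level of the 11 markers, Hk3 had Pearson's r = 0.946 (permutation test, p = 6e-05, adjusted over 16 relations to 0.00032) and Spearman's rho = 0.952 (permutation p = 8e-05), and r was 0.890 without replicates 4 and 8, the tumors farthest from the median. Hk2 had r = -0.746 (permutation p = 0.012, adjusted 0.024) and rho = -0.564 (permutation p = 0.096), and r fell in size to -0.418 without them. Hk1 had r = -0.408 (permutation p = 0.24). In the 10 WT tumors Hk3 had r = 0.550 and rho = 0.467 (permutation p = 0.098 and 0.18), and r was 0.271 without the 2 farthest tumors. Replicates 4 and 8 lay apart from the other PD-1cKO tumors on the Slc2a1 axis as well, so the values without them carry the relation within the rest.

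**Figure D5:**
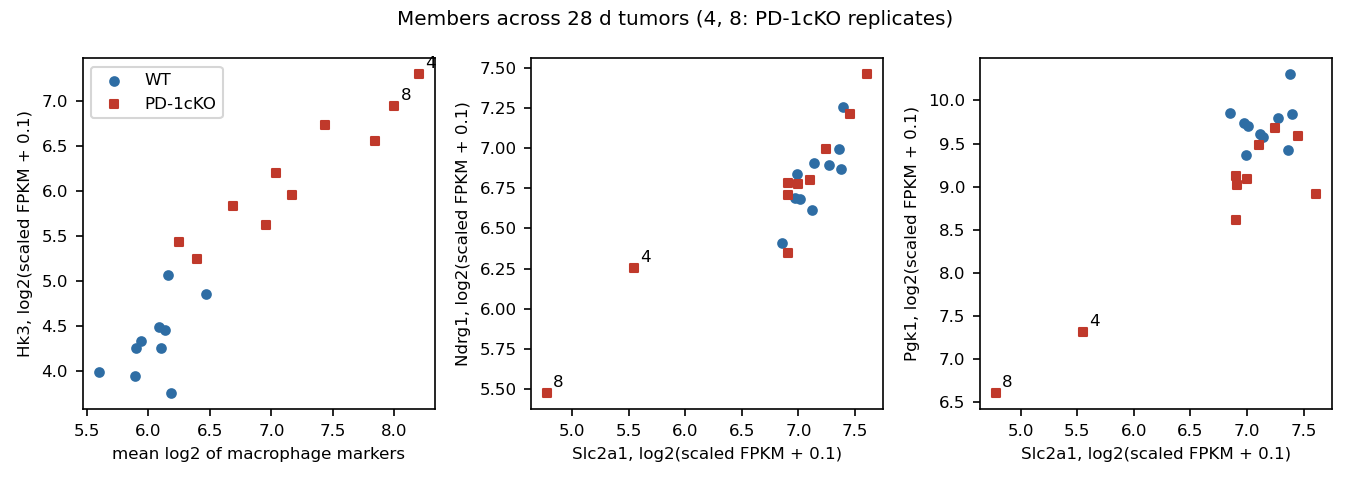
Hk3 against the mean log2 level of 11 macrophage markers (left), Ndrg1 against Slc2a1 (middle) and Pgk1 against Slc2a1 (right), all as log2(scaled FPKM + 0.1), in the 10 WT (circles) and 10 PD-1cKO tumors (squares) of 28 days. PD-1cKO replicates 4 and 8 are marked. In the right panel these 2 tumors lie far from the rest, and r falls from 0.942 to 0.350 without them, whereas for Ndrg1 it stays at 0.926.

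Across the PD-1cKO tumors Slc2a1 varied with the hypoxia targets Ndrg1, Ca9 and Ankrd37, whereas Bnip3 and Adm were not examined. In PD-1cKO tumors Ndrg1 had r = 0.933 and rho = 0.964 with Slc2a1 (permutation p = 1e-05, the smallest these resamples can give, and 6e-05), and r was 0.926 without replicates 4 and 8. Ca9 had r = 0.977 and rho = 0.830 and Ankrd37 r = 0.930 and rho = 0.915, and r without those tumors was 0.635 and 0.677. Pgk1 and Ldha had r = 0.942 and 0.920, which fell to 0.350 and 0.345 without them, so these relations rested on replicates 4 and 8. In WT tumors Ndrg1 had r = 0.822 and rho = 0.806 (permutation p = 0.0021 and 0.0080, adjusted 0.0053 and 0.026), and Ankrd37 r = 0.727 (permutation p = 0.022, adjusted 0.038) with rho = 0.648 (permutation p = 0.049, adjusted 0.11), which did not pass, while Ca9 (0.600), Ldha (0.465) and Pgk1 (0.288) did not pass. These RNAs come from the same libraries and share their composition.

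Other genes of these pathways were counted in 3 lists beside the members, and their shares were not tested against those of all genes. With PD-1 Ab at 8 days, 1 of 25 other glycolysis genes tested was higher, and 3 of 37 other hypoxia targets were higher and 2 lower, beside 7.16% higher and 1.05% lower among all genes. The changes named by size were Pygl, liver glycogen phosphorylase (1.92 ± 0.32), Loxl2, a collagen cross-linking enzyme (1.92 ± 0.41), Trf, transferrin (1.74 ± 0.35), and Nos2, the inducible nitric oxide synthase of macrophages (1.56 ± 0.23). In PD-1cKO, 2 of 25 other glycolysis genes were higher and 1 lower, and 7 of 37 other hypoxia targets were higher and 3 lower, beside 14.2% and 7.39% of all genes, with Loxl2 (1.99 ± 0.31), Trf (1.69 ± 0.31) and Nos2 (1.45 ± 0.21) among the higher. Of the regulators of HIF, 0 of 12 were called with PD-1 Ab, and in PD-1cKO Egln2, a prolyl hydroxylase, was higher (0.65 ± 0.16) and Cul2 and Rbx1, parts of the ligase that removes HIF alpha, were lower (-0.64 ± 0.18 and -0.63 ± 0.13). At 4 days none of the 3 lists had a member called, at an overall 0.0208% of genes.

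Against culture, 24 of 35 other hypoxia targets were higher in isotype control tumors of 8 days and 2 were lower, with a median log2 fold change of 0.98, while 6 of 23 other glycolysis genes were higher and 5 lower, with a median of 0.10. Among all genes 22.5% were higher and 13.6% lower. The largest changes were those of Trf, Nos2 and Lox, a collagen cross-linking enzyme, at 20.9, 9.01 and 6.86 scaled FPKM in these tumors and 0.054, 0.076 and 0.138 in culture. Fibroblast and macrophage markers were also higher, in 5 of 6 and 11 of 11 cases, and their part in these changes was not tested. Vhl, which marks HIF alpha for breakdown, was among 3 of 12 regulators of HIF that were higher (0.92 ± 0.10), and Crebbp, of the same list, was lower (-0.59 ± 0.15).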

How the data were processed

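RNA was measured in 46 libraries of 8 groups, which the sample labels give. The authors made stranded total RNA libraries with removal of ribosomal RNA, read paired ends of 50 bases, aligned them with the Omicsoft Aligner (at most 2 mismatches) to mouse build B38 and quantified genes of Ensembl release 86. The authors deposited FPKM per gene and library, and raw counts that they also derived are not used here. FPKM gives no depth. Gene names came from GENCODE M21 (48349 of 48795 identifiers matched) and promoters from RefSeq (GRCm38.p6).

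FPKM was divided by median-of-ratios factors over 11858 genes, 0.1 was added, and genes with a mean of at least 0.5 in either group were fitted on the log2 scale with limma 3.58.1 in R 4.3.3 (trended eBayes), using the samples of the groups compared, with Benjamini-Hochberg adjustment over all genes tested. A gene counted as called where its adjusted p was under 0.01. The method was tested on simulated data with independent noise of equal spread in the groups. Those data held no outlier tumors and no identifier runs, so the test does not cover them. Ratios and correlations were tested by permutation in Python 3.11.15. The methods describe tumors cut out of mice, but no label ties each library to its own animal or culture, so p-values measure the spread between these samples, which may be technical. No library pair held identical values, and no library was left out.

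The members and lists were chosen with earlier results of these data known. Named were Slc2a1, Hk1, Hk2, Hk3, Pgk1, Ldha, Ca9 and Hif1a where a result turns on them, up to 4 called members per direction by size of change, or the 3 smallest p values where none was called, and further members after seeing their values, to account for each role. Genes of other lists were named if called and among the 3 largest changes of their list. Alternatives are given after the report.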

Additional observations from a re-analysis of the deposited data

Results flagged for a closer look

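Levels of single libraries in groups of 5 or 10 were compared with the rest of their group on the log2 scale by Dixon's test, over 204 combinations of member and group, of which 19 passed. Chance flags about 1 in 20 groups. The 19 fell in 7 libraries. Values are scaled FPKM, with the nearest other library of the group after each.

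Isotype control replicate 1 of 4 days, the library with the high mitochondrial share, was the lowest of its group for Slc2a1 (88.1, next 166), Hk1 (26.4, next 41.6), Hk2 (21.04, next 31.6), Pkm (622, next 915) and Slc16a3 (64.5, next 186), and in the same group replicate 5 was the highest for Slc16a1 (32.3, next 24.6). WT replicate 9 was the highest of the WT tumors for Aldoc (45.2, next 24.7), Pgk1 (1262, next 927), Pgam1 (638, next 505), Ldha (1192, next 899) and Bnip3 (198, next 141). These are glycolytic enzymes with Bnip3, all from 1 tumor.

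PD-1 Ab replicate 1 of 4 days was the lowest of its group for Pfkp (38.4, next 50.2), Aldoc (16.0, next 25.4) and Ca9 (60.7, next 85.6), and replicate 3 for Pfkfb3 (20.8, next 24.5) and Epas1 (2.88, next 3.54). PD-1 Ab replicate 5 of 8 days was the highest of its group for Slc2a1 (186, next 125). PD-1cKO replicate 8 was the lowest of its group for Ankrd37 (2.34, next 9.44) and Egln3 (5.10, next 18.0).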

How the results depend on the processing

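FPKM gives no depth, so counting error at low levels, as for Hk3 in culture, could not be set. No member that was called turned direction under any alternative run.

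The number of members called moved by more than 1.5 times as follows. For PD-1 Ab at 8 days (6 as reported) it was 3 without the filter, 3 with all groups in 1 fit, 16 with array weights and 2 at 2-fold. For PD-1cKO (6) it was 3 without the filter, 11 with all groups in 1 fit, 2 at 2-fold, 0 with the run of identifiers as a covariate, and 2 without PD-1cKO replicates 4 and 8, an alternative chosen after seeing the data. For baseline tumors against culture (20) it was 9 with all groups in 1 fit and 12 at 2-fold, and for isotype control tumors of 8 days against baseline (3) it was 0 without the filter, 1 without the trend, 1 with all groups in 1 fit and 10 with array weights. Array weights gave 1 member for the difference between the models. The cause of these shifts was not tested.

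Leaving out 1 library at a time gave 1 to 13 members for PD-1 Ab at 8 days, 0 to 0 at 4 days and for the difference between the models, 3 to 8 for PD-1cKO, 17 to 22 for isotype control tumors and 14 to 25 for baseline tumors against culture, and 0 to 5 for isotype control against baseline tumors. The shares of all genes called in these fits are not given beside them. In the same order, without the model difference, the Hk3 to Hk1 log2 ratio differed by 2.26 to 2.58, 1.04 to 1.44, 1.73 to 2.02, 5.25 to 5.56, 5.28 to 6.14 and -0.73 to 0.13, and the Hk3 to Hk2 ratio by 2.14 to 2.51, 1.02 to 1.41, 1.74 to 2.09, 4.59 to 4.91, 4.67 to 5.51 and -0.76 to 0.086.

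Replicate numbers did not pair the samples, since same-numbered samples did not deviate together. With the replicate number as a block, 3 members were called for PD-1 Ab at 8 days, 0 for isotype control against baseline tumors, 4 for PD-1cKO and 15 for isotype control tumors against culture.

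Correlations across tumors moved without the 2 farthest tumors. In PD-1cKO r was then 0.085 for Hk1, -0.418 for Hk2, 0.635 for Ca9, 0.677 for Ankrd37, 0.350 for Pgk1 and 0.345 for Ldha, and in WT it was 0.070 for Hk1, -0.277 for Hk2, 0.271 for Hk3 and 0.689 for Ldha. With FPKM as deposited r for Hk1 in PD-1cKO was -0.696.

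Counts over all genes moved as well. For PD-1 Ab at 8 days (1209) they were 559 without the filter, 4715 with array weights and 376 with the block. At 4 days (3) they were 0 under both other scalings, with either other filter, without the trend and with the block, 5 with a pseudocount of 1 and 37 with array weights. For PD-1cKO (3357) they were 5547 with all groups in 1 fit, 0 with the run, 2073 without replicates 4 and 8 and 1347 at 2-fold. For isotype control tumors against culture (5281) they were 8524 with array weights, 2614 with the block and 3017 at 2-fold, and for baseline tumors (5695) 2227 with all groups in 1 fit, 3654 at 1.5-fold and 2321 at 2-fold. For isotype control against baseline tumors (89) they were 157 with a pseudocount of 1, 47 without the filter, 784 with array weights, 1 with the block and 160 with all groups in 1 fit. For the difference between the models (4) they were 16 as deposited, 11 with upper-quartile scaling, 32 with a pseudocount of 1, 25 without the filter, 19 without the trend, 759 with array weights and 1 without replicates 4 and 8.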
